A study of Oryza sativa with 6 samples.

Results

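Rice seedlings from which water was withheld for 2 d are compared here with well-watered seedlings, in the roots. The plants were japonica rice, cultivar Chilbo, 4-week-old seedlings raised in soil in an incubator, with several plants sharing each pot. Irrigation was then withheld for 2 d (water deficiency, WD; this group is called WD2d) or continued (control, C). Each group had 2 root RNA libraries, so the comparison rests on 4 of the 6 libraries of the series, the other 2 being roots after 3 d of WD. No genotype, allele or agent other than the lack of water separates the groups. The labels do not give the day on which the control roots were sampled, so a difference in sampling day between the groups is not known. The labels call the libraries replicates, and the sources used here do not say how many plants or pots went into each.

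The deposited table holds 1 FPKM value per group for each of 63985 entries, an entry being a stretch of genome counted as 1 unit, which names none, 1 or several rice loci. FPKM is the number of fragments scaled to transcript length and to the total of mapped fragments. Both libraries of a group were pooled in that 1 value, so no spread between libraries is known, no test was possible, and every difference below is a description of 2 pooled values. The depth of the libraries is not given in the sources used here, and no counting interval could be set. An entry is called past the fold here when it had over 4 FPKM in both groups and its log2 ratio, WD2d over control without a pseudocount, was over 1 or under -1, that is, a more than 2-fold difference. The whole table was used for counts, whereas genes are named only where the entry starts below 10.1 Mb on chromosome 1, 6.0 Mb on chromosome 2, 4.9 Mb on chromosome 3, 7.4 Mb on chromosome 5, 11.1 Mb on chromosome 6, 11.4 Mb on chromosome 8 or 5.1 Mb on chromosome 12, because names further along may be misplaced. These stretches hold 8719 entries. Of the 8689 loci named there, 564 are annotated in the study's tables, and only these are given a name or a role. Most of the 564 were picked by the study as changed in these same libraries, so that being past the fold is largely how they came to be annotated and is no independent evidence. Many gene lists below hold such loci, so a list count above the share over all entries is likewise no independent evidence.

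A root in drying soil loses the water potential gradient that drives uptake. Roots are known to answer by accumulating sugars and other solutes, by producing protective proteins, by keeping reactive oxygen species and reactive aldehydes low, and by slowing growth, which lowers the need for new cell wall. Uptake of mineral nutrients, which reach the root surface dissolved in water, is also known to be altered. In bulk root RNA, fewer cells of a type and less RNA per cell cannot be told apart.

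The tissue label was set against loci listed as markers from general knowledge. The 4 listed leaf chloroplast loci summed to 11.8 FPKM in WD2d and 0.552 FPKM in control, and 1 of them alone had 10.2 FPKM in WD2d. The 4 listed root loci summed to 203.4 FPKM in WD2d and 1275 FPKM in control. Of these, LOC_Os03g05290, annotated as an aquaporin, had 196.1 FPKM in WD2d and 305.5 FPKM in control, LOC_Os03g01700 had 7.18 FPKM in WD2d and 920.6 FPKM in control, and the other 2 were at or under 0.157 FPKM in WD2d, although 1 of them had 48.3 FPKM in control. The sources annotate none of the leaf loci and 2 of the root loci, 1 of these as an expressed protein without a role, so the tissue was checked only in part. The part of a change in cell makeup in the results below was not tested.

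Of the 63985 entries, 11718 had over 4 FPKM in both groups. After 2 d of WD, 1216 of them were higher than in control by more than 2-fold (10.4% of the entries over the limit) and 1381 were lower (11.8%), while 9121 stayed within 2-fold. Among the entries over the limit in both groups, the changes were thus split nearly evenly between the directions, and the median log2 ratio was 0.08. The middle 50% of the entries had log2 ratios between -0.44 and 0.53, and 5% lay below -1.65 and 5% above 1.49. Beyond 4-fold, 324 entries were higher and 390 lower in WD2d. Beyond 16-fold, 36 were higher and 34 lower. The split was less even when ratios were centred on the median, with 1068 higher and 1557 lower. It was also less even among entries with over 4 FPKM in at least 1 group and both values positive, 2343 of them higher and 3536 lower.

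The stretches in which names were used looked like the rest of the table. There, 222 of 2086 entries over the limit were higher in WD2d (10.6%) and 250 were lower (12.0%), together 22.6%, against 10.3% higher and 11.7% lower among the 9632 entries elsewhere. Among the 1758 entries of the stretches that name exactly 1 locus, 186 were higher (10.6%) and 227 lower (12.9%). The share varied between chromosomes. On the stretch of chromosome 1, 14.4% of 383 entries were higher and 10.2% lower, whereas on that of chromosome 5, 10.3% of 301 were higher and 15% lower, and on that of chromosome 3 both shares were 9.41%. The level of an entry mattered mainly at the low end. In the quartile of entries with the lowest geometric mean of both groups (4.04 to 9.56 FPKM), 5.67% were higher and 7.17% lower, which the limit of 4 FPKM in both groups partly fixes. In the other quartiles, 11.4% to 12.8% were higher and 13.1% to 13.5% were lower.

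**Figure D1:**
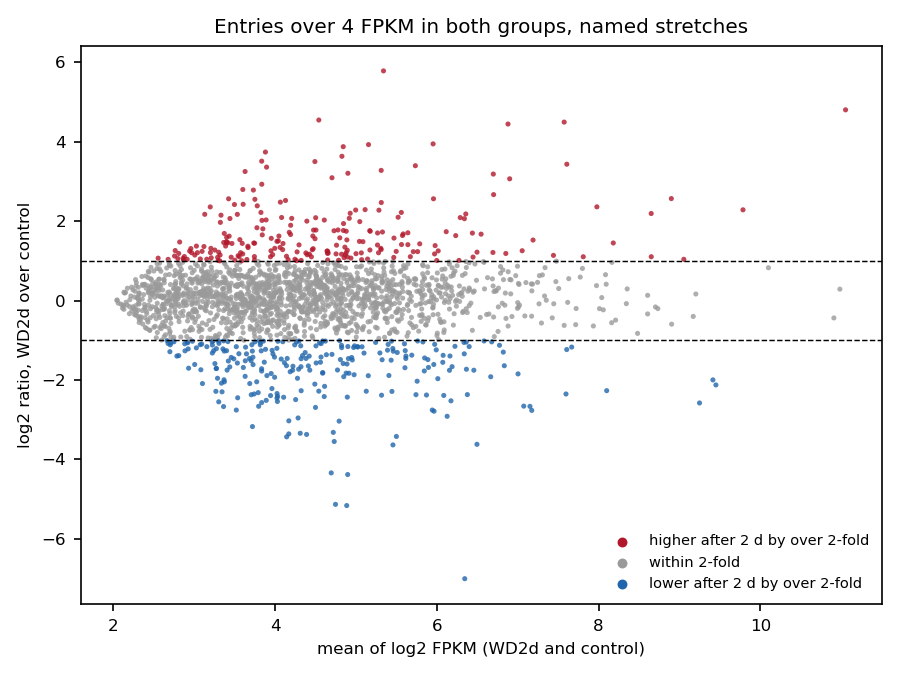
Log2 ratio of FPKM (WD2d over control) against the mean of log2 FPKM of both groups, 1 point per entry, for the 2086 entries of the stretches in which names were used that had over 4 FPKM in both groups. Red points are higher and blue points lower by over 2-fold (dashed lines at 1 and -1), and grey points lie within. The 222 higher and 250 lower entries are absent at the lowest levels, where the limit of 4 FPKM in both groups leaves no room for them, and the lowest point, at -7.00, is LOC_Os03g01700.

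Among genes over 4 FPKM in both groups, the 4 highest ratios were those of a Bowman-Birk inhibitor, a metallothionein, an expressed protein and a second Bowman-Birk inhibitor. LOC_Os01g03360 and LOC_Os01g03340 encode BBTI5 and BBTI4, Bowman-Birk inhibitors, small proteins that block trypsin-like serine proteases. BBTI5 had 300.7 FPKM in WD2d and 5.45 FPKM in control, a log2 ratio of 5.78, the highest of the genes in the stretches by the rule used to name genes. BBTI4 had 549.8 FPKM in WD2d and 25.2 FPKM in control (log2 ratio 4.45). Both are listed on chromosome 1 within the same span, 1346589 to 1365423 in the IRGSP 1.0 genome, and members of such families can share reads. These were the only 2 of the 6 listed Bowman-Birk loci with over 4 FPKM in both groups.

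LOC_Os01g05650, a metallothionein, a small cysteine-rich protein that binds metal ions, had 11238 FPKM in WD2d and 402.4 FPKM in control (log2 ratio 4.80), which made it the most abundant transcript in WD2d among the genes with an unshared name in the stretches. It was also abundant in control, so that the gain was large both in ratio and in FPKM. Of the 3 listed metallothioneins, 2 were over the limit, 1 higher and 1 lower.

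Other genes among the 15 highest ratios act in metabolism, transport and gene control. LOC_Os06g04510 (enolase, which forms phosphoenolpyruvate in glycolysis) had 243.2 FPKM in WD2d and 15.8 FPKM in control. LOC_Os03g06520, a sulfate transporter, had 139.0 FPKM in WD2d and 9.13 FPKM in control. LOC_Os08g04630, an external NADH-ubiquinone oxidoreductase, which in plant mitochondria passes electrons to ubiquinone without pumping protons, had 47.6 FPKM in WD2d against 4.64 FPKM in control. The log2 ratios of these genes were 3.95, 3.93 and 3.36. LOC_Os01g01450, annotated only as a stress responsive protein, had 640.8 FPKM in WD2d and 59.3 FPKM in control. LOC_Os05g05060 and LOC_Os01g03870, expressed proteins without a role, had 112.5 and 48.1 FPKM in WD2d and 4.81 and 4.22 FPKM in control. The 15 genes had 47.6 to 11238 FPKM in WD2d and 4.22 to 402.4 FPKM in control.

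The 15 genes with the lowest ratios over the limit included 3 expressed proteins without a role, 2 peroxidases and 1 metal transporter. LOC_Os03g01700, an expressed protein without a role in the sources used here, had 7.18 FPKM in WD2d and 920.6 FPKM in control (log2 ratio -7.00). LOC_Os02g03900, annotated as the metal transporter Nramp6, of a family that moves divalent metal ions across membranes, had 4.94 FPKM in WD2d and 176.8 FPKM in control (log2 ratio -5.16). LOC_Os05g06970, a class III peroxidase, had 4.53 FPKM in WD2d and 158.9 FPKM in control (log2 ratio -5.13). All of these were well expressed in control and near the limit of 4 FPKM in WD2d. LOC_Os06g05120, an expressed protein, had 5.75 FPKM in WD2d and 116.4 FPKM in control. LOC_Os08g02120, a pfkB-type sugar kinase, had 13.8 FPKM in WD2d and 148.0 FPKM in control. LOC_Os05g01470, a methionine S-methyltransferase, which makes the sulfur storage compound S-methylmethionine, had 6.30 FPKM in WD2d and 51.4 FPKM in control. LOC_Os03g02040, a remorin, a plant protein of the plasma membrane, had 9.67 FPKM in WD2d and 79.3 FPKM in control, and a second remorin, LOC_Os02g02500, had 5.96 FPKM in WD2d and 13.3 FPKM in control. The 15 genes with the lowest ratios had 4.53 to 25.7 FPKM in WD2d and 51.4 to 920.6 FPKM in control.

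**Figure D2:**
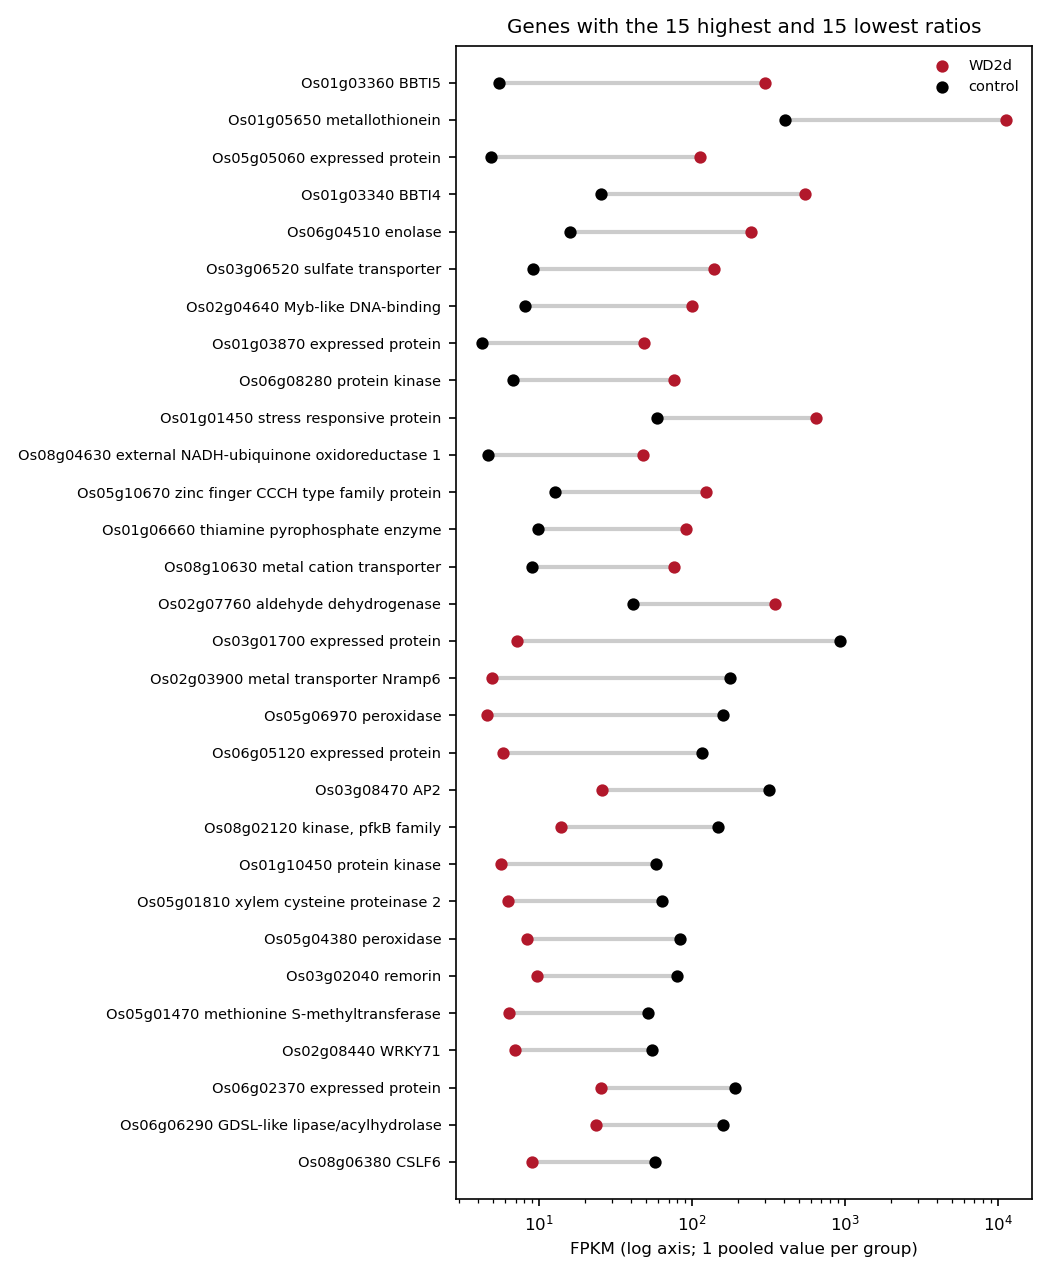
FPKM (log axis, 1 pooled value per group) in WD2d (red) and control (black) of the 15 genes with the highest and the 15 with the lowest log2 ratio, among entries that name 1 locus named by no other entry and have over 4 FPKM in both groups. BBTI5, with 300.7 FPKM in WD2d against 5.45 FPKM in control, stands at the top, and the metallothionein reaches 11238 FPKM in WD2d. No error bars are drawn because each group has 1 value.

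The steps of glycolysis were not all on the same side. Of 14 listed glycolytic loci, 12 were over the limit, 3 of them higher, 2 lower and 7 within 2-fold in WD2d, against 10.6% higher and 12.0% lower over all entries of the stretches, with a median log2 ratio of 0.40 against 0.09 over all entries of the stretches. LOC_Os08g03290 (OsGAPC3, a glyceraldehyde-3-phosphate dehydrogenase of the cytosol) had 1949 FPKM in WD2d and 399.7 FPKM in control (log2 ratio 2.29), and was among the most abundant transcripts. LOC_Os05g09500, a hexokinase, which phosphorylates glucose, had 28.2 FPKM in WD2d and 10.4 FPKM in control, and a second hexokinase, LOC_Os01g09460, had 9.05 FPKM in WD2d and 5.49 FPKM in control and was within 2-fold. Both annotated 6-phosphofructokinases, which catalyse the committed step of glycolysis, were lower. LOC_Os06g05860 had 6.20 FPKM in WD2d and 30.9 FPKM in control, and LOC_Os01g09570 had 30.4 FPKM in WD2d and 61.8 FPKM in control. The log2 ratios were -2.32 and -1.02, the second just past the limit.

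Downstream of glycolysis, both listed enzymes of the tricarboxylic acid cycle were higher. Over all entries of the stretches, 10.6% were higher, and over all annotated loci over the limit, 33.5%. Both enzymes are annotated, and being past the fold is largely how loci came to be annotated. LOC_Os02g10070, a citrate synthase, had 167.0 FPKM in WD2d and 52.4 FPKM in control (log2 ratio 1.67), and LOC_Os08g09200, an aconitate hydratase, the next enzyme of the cycle, had 480.1 FPKM in WD2d and 175.6 FPKM in control (log2 ratio 1.45). LOC_Os05g09440, an NADP-dependent malic enzyme, was lower, with 4.60 FPKM in WD2d and 14.02 FPKM in control. LOC_Os01g11054, a phosphoenolpyruvate carboxylase, had 12.01 FPKM in WD2d and 21.97 FPKM in control and was within 2-fold.

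Genes that make sucrose and inositol were higher, and the annotated gene that cleaves sucrose was lower. LOC_Os02g05030, a sucrose-phosphatase, which completes sucrose synthesis, had 76.5 FPKM in WD2d and 15.6 FPKM in control (log2 ratio 2.29). LOC_Os06g09450, a sucrose synthase, which despite its name mainly cleaves sucrose in sink tissue, had 335.2 FPKM in WD2d and 1461 FPKM in control (log2 ratio -2.12). LOC_Os03g09250 (RINO1, inositol-3-phosphate synthase, the first step of inositol synthesis) had 165.6 FPKM in WD2d and 39.6 FPKM in control (log2 ratio 2.06). LOC_Os06g04270, a transketolase, had 67.4 FPKM in WD2d and 136.4 FPKM in control and was just past the limit (log2 ratio -1.02).

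Of 4 listed loci of enzymes that remove reactive aldehydes, all over the limit, 3 were higher and 1 was within 2-fold, with a median log2 ratio of 2.38. Over all entries of the stretches, 10.6% were higher, and over all annotated loci over the limit, 33.5%. The 3 higher ones are the annotated ones, genes that the study picked from these libraries. LOC_Os08g09250 (OsGLYI-11.2, a glyoxalase, of the glutathione-dependent path that removes methylglyoxal) had 859.1 FPKM in WD2d and 187.9 FPKM in control. LOC_Os05g07940, also annotated as a glyoxalase family protein, had 151.2 FPKM in WD2d and 25.6 FPKM in control. LOC_Os02g07760, an aldehyde dehydrogenase, had 345.8 FPKM in WD2d and 41.3 FPKM in control. Their log2 ratios were 2.19, 2.56 and 3.07.

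Of 12 listed antioxidant loci, of enzymes that remove reactive oxygen species, 11 were over the limit, 4 higher, 0 lower and 7 within 2-fold, against 10.6% higher and 12.0% lower over all entries of the stretches. The median log2 ratio was 0.54. LOC_Os02g02400, a catalase, had 329.1 FPKM in WD2d and 153.1 FPKM in control and was just past the limit. The entry of OsCAT2, LOC_Os03g03910, which names a second locus as well, had 24.9 FPKM in WD2d and 22.4 FPKM in control and was within 2-fold. OsAPX5 and OsAPX6, ascorbate peroxidases, share 1 entry, which had 12.1 FPKM in WD2d and 8.84 FPKM in control (log2 ratio 0.46). OsCAT2, OsAPX5 and OsAPX6 are annotated through the study's primers and not because they changed. Both annotated thioredoxins, LOC_Os01g07376 and LOC_Os05g07690, were higher, with 26.5 and 94.3 FPKM in WD2d and 10.5 and 41.8 FPKM in control.

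Of 16 listed loci of secreted class III peroxidases, which act in the cell wall, 7 were over the limit, 0 higher and 4 lower, against 10.6% higher and 12.0% lower over all entries of the stretches, and the median log2 ratio was -2.49. LOC_Os01g15830, the most abundant of the annotated ones, had 56.5 FPKM in WD2d and 357.8 FPKM in control (log2 ratio -2.66). LOC_Os05g04380 and LOC_Os05g04500 had 8.34 and 8.04 FPKM in WD2d and 83.2 and 45.2 FPKM in control. LOC_Os03g02920 had 21.3 FPKM in WD2d and 35.3 FPKM in control and was within 2-fold (log2 ratio -0.73).

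Of 18 annotated entries of proteins that build or modify the cell wall, grouped by their descriptions after the values had been seen, 10 were lower, 3 higher and 5 within 2-fold, against 33.5% higher and 34.4% lower over all annotated loci over the limit. These loci were largely picked by the study as changed, and their median log2 ratio was -1.08. LOC_Os05g08370 (CESA1, a subunit of the cellulose synthase of primary walls) had 72.1 FPKM in WD2d and 177.3 FPKM in control (log2 ratio -1.30). LOC_Os08g06380 (CSLF6, which makes the mixed-linkage glucan of grass walls) had 8.90 FPKM in WD2d and 57.5 FPKM in control (log2 ratio -2.69). CSLD2, LOC_Os06g02180, had 20.9 FPKM in WD2d and 34.7 FPKM in control and was within 2-fold. LOC_Os05g03174, a family 43 glycosyltransferase, a family known for xylan synthesis in Arabidopsis, had 4.91 FPKM in WD2d and 20.8 FPKM in control. LOC_Os03g03600, a fasciclin-like arabinogalactan protein, had 10.5 FPKM in WD2d and 56.3 FPKM in control. LOC_Os08g13920, a family 16 glycosyl hydrolase, had 31.1 FPKM in WD2d and 106.2 FPKM in control, and LOC_Os12g03470, an alpha-N-arabinofuranosidase, had 38.8 FPKM in WD2d and 131.0 FPKM in control. Among the exceptions, LOC_Os03g04020, an expansin, a family of proteins that loosen walls, had 17.2 FPKM in WD2d and 7.87 FPKM in control, and LOC_Os03g07270, a glycine-rich wall protein, had 17.5 FPKM in WD2d and 6.37 FPKM in control. LOC_Os03g03610, annotated with a 1,3-beta-glucan (callose) synthase domain, had 148.6 FPKM in WD2d and 82.1 FPKM in control and was within 2-fold (log2 ratio 0.86).

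Of 6 listed loci of lignin synthesis, 5 were over the limit, 1 lower and 4 within 2-fold, close to the 77.4% within 2-fold and 12.0% lower over all entries of the stretches. LOC_Os02g08420, a cinnamoyl-CoA reductase, the lower one, had 21.7 FPKM in WD2d and 54.2 FPKM in control. LOC_Os06g06980, a caffeoyl-CoA O-methyltransferase, had 17.5 FPKM in WD2d and 18.96 FPKM in control. LOC_Os05g01810, a xylem cysteine proteinase, of a kind that in Arabidopsis clears the contents of dying xylem vessels, had 6.23 FPKM in WD2d and 63.2 FPKM in control (log2 ratio -3.34).

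All 5 GDSL lipases, a family of esterases of which some form or cut surface polyesters, were over the limit and lower. Their log2 ratios were between -2.76 and -1.14. Over all entries of the stretches, 12.0% were lower, and over all annotated loci over the limit, 34.4%. The study picked the 5 from these libraries, so their direction is no independent evidence. LOC_Os06g06290 had 23.7 FPKM in WD2d and 159.9 FPKM in control. The neighbouring LOC_Os05g06710 and LOC_Os05g06720 had 12.03 and 13.4 FPKM in WD2d and 33.2 and 29.6 FPKM in control, and LOC_Os05g11910 and LOC_Os05g11950 had 8.18 and 6.94 FPKM in WD2d and 29.2 and 38.1 FPKM in control. Both listed lipid transfer proteins were lower too, beside the same shares. They are annotated as well, and being past the fold is largely how loci came to be annotated. LTPL104, LOC_Os05g06780, had 125.0 FPKM in WD2d and 602.3 FPKM in control, and the entry of LTPL43, LOC_Os02g08010, which names 3 loci, had 23.8 FPKM in WD2d and 164.0 FPKM in control.

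**Figure D3:**
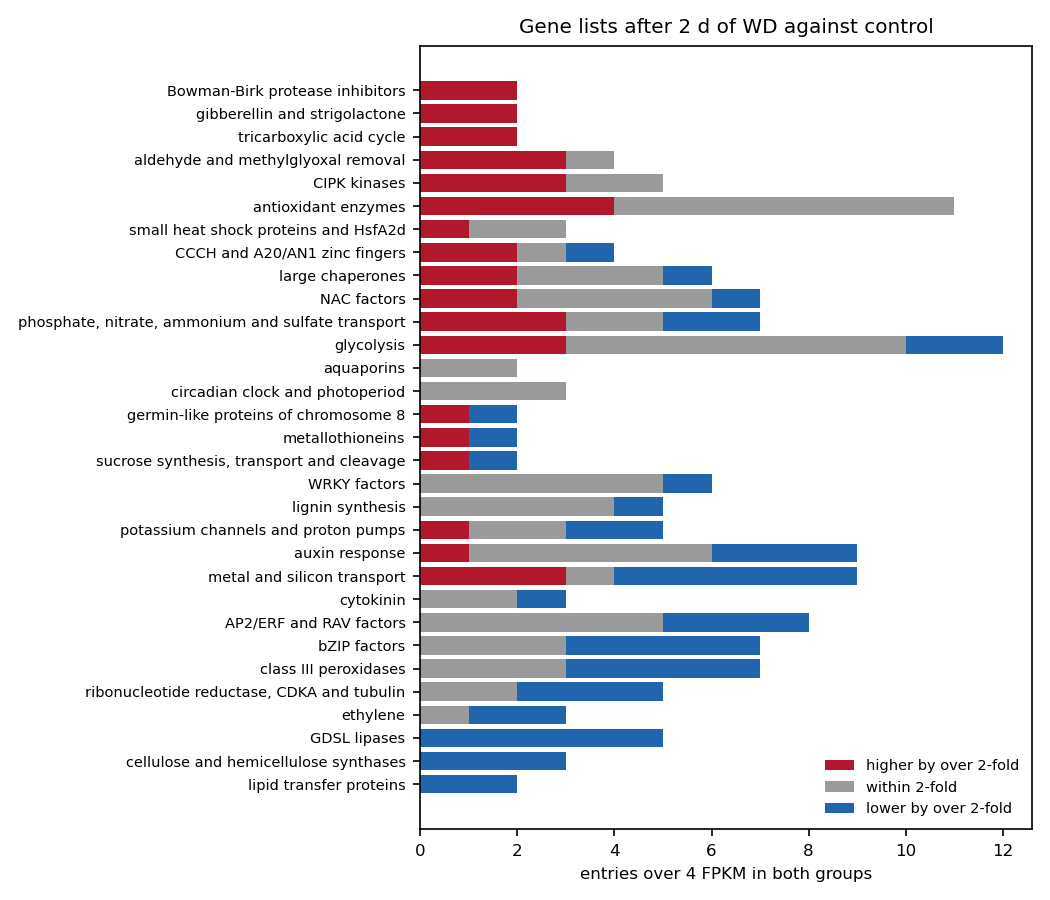
Number of entries with over 4 FPKM in both groups that were higher by over 2-fold in WD2d (red), within 2-fold (grey) or lower by over 2-fold (blue), for each gene list with at least 2 such entries. Lists are ordered by the share of higher minus the share of lower entries, from the Bowman-Birk inhibitors at the top, both higher, to lists near the bottom such as the GDSL lipases, all 5 lower. The glycolysis list holds 3 higher, 7 within and 2 lower.

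Of 9 listed loci of metal and silicon transport, all over the limit, 3 were higher, 5 lower and 1 within 2-fold in WD2d. LOC_Os03g01700 is counted among the lower. Over all entries of the stretches, 10.6% were higher and 12.0% lower, and over all annotated loci over the limit, 33.5% and 34.4%. The 8 past the fold are the 8 annotated ones, and being past the fold is largely how loci came to be annotated. LOC_Os08g10630 (OsZIP4, a zinc transporter) had 76.1 FPKM in WD2d and 8.91 FPKM in control (log2 ratio 3.09). LOC_Os05g03780 (OsMTP1, a cation efflux protein) had 161.3 FPKM in WD2d and 37.9 FPKM in control (log2 ratio 2.09), and LOC_Os12g01530, a ferritin, the protein that stores iron, had 24.6 FPKM in WD2d and 5.45 FPKM in control (log2 ratio 2.17). Lower were, beside Nramp6, LOC_Os02g10290, a copper-transporting ATPase with 34.9 FPKM in WD2d and 95.1 FPKM in control, and LOC_Os03g05750, a heavy-metal-associated domain protein with 15.8 FPKM in WD2d and 77.1 FPKM in control. LOC_Os05g07210, described in the same words as OsZIP4, as a metal cation transporter, had 16.2 FPKM in WD2d and 33.9 FPKM in control (log2 ratio -1.06), so the 2 genes with this description lay on opposite sides.

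Of 13 listed transporters of phosphate, nitrate, ammonium and sulfate, 7 were over the limit, 3 higher, 2 lower and 2 within 2-fold, against 10.6% higher and 12.0% lower over all entries of the stretches. Both annotated sulfate transporters were higher: beside LOC_Os03g06520, LOC_Os06g05160 had 38.8 FPKM in WD2d and 12.6 FPKM in control (log2 ratio 1.63). LOC_Os12g01420, an ammonium transporter in an entry naming 2 loci, had 10.5 FPKM in WD2d and 4.39 FPKM in control (log2 ratio 1.26). LOC_Os03g05620, an inorganic phosphate transporter, was lower, with 13.8 FPKM in WD2d and 40.4 FPKM in control. LOC_Os08g05910, a peptide transporter of the PTR2 type, had 5.85 FPKM in WD2d and 34.7 FPKM in control. The 3 annotated amino acid transporters were all lower, beside 34.4% lower over all annotated loci over the limit. LOC_Os08g03350 had 44.1 FPKM in WD2d and 116.1 FPKM in control, and LOC_Os12g08090 and LOC_Os12g08130, which lie near each other, had 4.58 and 6.20 FPKM in WD2d and 22.5 and 35.4 FPKM in control.

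Of 8 listed loci of potassium channels and proton pumps, 5 were over the limit, 1 higher, 2 lower and 2 within 2-fold. Over all entries of the stretches, 10.6% were higher and 12.0% lower. Both annotated potassium carriers were lower, beside 34.4% lower over all annotated loci over the limit. LOC_Os06g14030, annotated as SKOR, a channel that in Arabidopsis releases potassium into the xylem, had 11.2 FPKM in WD2d and 35.6 FPKM in control, and LOC_Os08g10550, a potassium transporter, had 6.65 FPKM in WD2d and 16.1 FPKM in control. LOC_Os02g09150, a membrane-bound proton pyrophosphatase, an enzyme that acidifies the vacuole, was higher, with 49.2 FPKM in WD2d and 12.1 FPKM in control, while LOC_Os05g02310, a soluble pyrophosphatase, was lower, with 12.8 FPKM in WD2d and 45.1 FPKM in control. Of 8 listed loci of aquaporins, the water channels, only 2 were over the limit, both within 2-fold. The others could not be called. The limit also drops loci that were nearly silent in only 1 group, so these 2 do not describe the whole list. Over all entries of the stretches, 77.4% were within 2-fold. The annotated LOC_Os03g05290 had a log2 ratio of -0.64. LOC_Os01g10600, an aquaporin not on the list, in an entry naming 2 loci, had 34.7 FPKM in WD2d and 57.04 FPKM in control (log2 ratio -0.72).

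For 2 routes of amino acid metabolism, a pair of enzymes was on the same side. LOC_Os03g03450 (anthranilate phosphoribosyltransferase) and LOC_Os08g04180 (tryptophan synthase beta chain), an early and the last step of tryptophan synthesis, had 34.9 and 262.4 FPKM in WD2d and 8.19 and 41.3 FPKM in control. LOC_Os06g01360 (homogentisate 1,2-dioxygenase) and LOC_Os02g10310 (fumarylacetoacetase), both of tyrosine breakdown, had 53.9 and 174.6 FPKM in WD2d and 16.1 and 38.5 FPKM in control. The log2 ratios were 2.09, 2.67, 1.75 and 2.18. In contrast, 2 parts of the glycine cleavage system differed. LOC_Os02g07410, its H protein, had 25.7 FPKM in WD2d and 133.5 FPKM in control, whereas LOC_Os06g04380, an aminomethyltransferase in an entry naming 2 loci, had 172.7 FPKM in WD2d and 16.4 FPKM in control. LOC_Os06g05700, a cysteine synthase, had 5.33 FPKM in WD2d and 17.5 FPKM in control, opposite to the sulfate transporters. These genes were put together after their values had been seen, so the pairs are a description only. Over all annotated loci over the limit, 33.5% were higher and 34.4% lower.

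Of 27 annotated transcription factor entries, grouped by description, 10 were higher, 11 lower and 6 within 2-fold, close to the 33.5% higher and 34.4% lower over all annotated loci over the limit. LOC_Os02g04640, a Myb-like protein, had 99.9 FPKM in WD2d and 8.05 FPKM in control (log2 ratio 3.63), and LOC_Os01g06640, a basic helix-loop-helix protein, had 26.1 FPKM in WD2d and 4.88 FPKM in control (log2 ratio 2.42). Of 33 listed AP2/ERF and RAV loci, 8 were over the limit, 0 higher, 3 lower and 5 within 2-fold, against 10.6% higher and 12.0% lower over all entries of the stretches, so that 0 of 8 higher is near that share. LOC_Os03g08470, an AP2 domain protein, had 25.7 FPKM in WD2d and 316.4 FPKM in control (log2 ratio -3.62), LOC_Os05g03040 had 52.2 FPKM in WD2d and 197.4 FPKM in control, and LOC_Os06g11860, an ethylene-responsive factor, had 6.72 FPKM in WD2d and 27.7 FPKM in control. WRKY71, LOC_Os02g08440, had 6.99 FPKM in WD2d and 54.2 FPKM in control (log2 ratio -2.96), while WRKY1, LOC_Os01g14440, had 9.95 FPKM in WD2d and 14.4 FPKM in control and was within 2-fold.

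Of 15 listed bZIP loci, 7 were over the limit, 0 higher, 4 lower and 3 within 2-fold. Over all entries of the stretches, 10.6% were higher and 12.0% lower. The entry of LOC_Os02g10140, a bZIP factor, which names 2 loci, had 5.38 FPKM in WD2d and 57.99 FPKM in control (log2 ratio -3.43). LOC_Os05g03860 and LOC_Os02g03960, annotated as CPuORF3 and CPuORF1, transcripts with a conserved peptide encoded upstream of the main reading frame, had 85.7 and 5.91 FPKM in WD2d and 437.4 and 30.2 FPKM in control, both with a log2 ratio of -2.35. Of 20 listed NAC factors, 7 were over the limit, 2 higher, 1 lower and 4 within 2-fold, beside the same shares over all entries. The 2 higher were LOC_Os06g04090, with 22.01 FPKM in WD2d and 8.06 FPKM in control, and ONAC131, LOC_Os12g03040, with 10.8 FPKM in WD2d and 5.25 FPKM in control.

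Of 5 listed CCCH and A20/AN1 zinc finger loci, proteins that include binders of RNA or DNA, 4 were over the limit, 2 higher, 1 lower and 1 within 2-fold, against 10.6% higher and 12.0% lower over all entries of the stretches. LOC_Os05g10670 (OsTZF1) had 123.7 FPKM in WD2d and 12.7 FPKM in control (log2 ratio 3.28), and LOC_Os01g09620 (OsDOS) had 85.7 FPKM in WD2d and 17.7 FPKM in control (log2 ratio 2.28). LOC_Os02g06584, a CCCH protein that is not on the list, had 42.7 FPKM in WD2d and 31.5 FPKM in control and was within 2-fold. LOC_Os05g03760, a zinc finger family protein on the list, was lower, with 64.6 FPKM in WD2d and 201.4 FPKM in control. Of 9 annotated C3HC4 and RING proteins, a group that includes many ubiquitin ligases, 4 were higher and 4 lower. Over all annotated loci over the limit, 33.5% were higher and 34.4% lower. LOC_Os03g05270 had 70.3 FPKM in WD2d and 14.5 FPKM in control, in an entry naming 2 loci, whereas LOC_Os02g06920 had 10.8 FPKM in WD2d and 46.6 FPKM in control.

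Among 31 annotated protein kinase entries over the limit, 18 were lower, 7 higher and 6 within 2-fold, against 33.5% higher and 34.4% lower over all annotated loci over the limit, and the median log2 ratio was -1.04. Of 9 listed loci of CIPK kinases (calcineurin B-like protein-interacting protein kinases), 5 were over the limit, 3 higher and 2 within 2-fold. Over all entries of the stretches, 10.6% were higher and 12.0% lower. The 3 higher ones, the only annotated members, are described as SNF1-like kinases of the calcium/calmodulin-dependent group. LOC_Os03g03510 had 90.2 FPKM in WD2d and 27.6 FPKM in control, LOC_Os12g02200 had 38.5 FPKM in WD2d and 16.2 FPKM in control, and LOC_Os12g03810 had 29.02 FPKM in WD2d and 9.41 FPKM in control. The 2 described only as like calcium/calmodulin-dependent kinases were lower: LOC_Os03g03660 had 39.3 FPKM in WD2d and 115.4 FPKM in control, and LOC_Os06g03676, in an entry naming 2 loci, had 14.8 FPKM in WD2d and 55.97 FPKM in control. Both WNK kinases were lower as well, with 53.6 and 9.86 FPKM in WD2d and 338.5 and 25.01 FPKM in control for LOC_Os12g06490 and LOC_Os05g01780. LOC_Os06g08280 and LOC_Os06g06760, protein kinases not described further, were the 2 with the highest ratios, with 75.7 and 39.4 FPKM in WD2d and 6.68 and 5.17 FPKM in control.

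Receptors of hormones and growth peptides were put together after their values had been seen. LOC_Os08g17410, annotated as BRASSINOSTEROID INSENSITIVE 1, the name of the Arabidopsis brassinosteroid receptor, had 5.51 FPKM in WD2d and 16.5 FPKM in control. Of the 3 genes annotated as its associated receptor kinase, LOC_Os02g09359 had 8.16 FPKM in WD2d and 31.1 FPKM in control, LOC_Os08g07760, in an entry naming 2 loci, had 13.1 FPKM in WD2d and 32.6 FPKM in control, and LOC_Os06g16300 had 23.8 FPKM in WD2d and 32.7 FPKM in control and was within 2-fold. LOC_Os12g05260, a precursor of phytosulfokine, a peptide that promotes cell growth, and LOC_Os02g02490, a phytosulfokine receptor, had 10.5 and 9.63 FPKM in WD2d and 33.05 and 22.5 FPKM in control. Peptide and receptor thus lay on the same side, with log2 ratios of -1.65 and -1.23. LOC_Os05g06320, an ethylene receptor, had 9.72 FPKM in WD2d and 26.04 FPKM in control, and LOC_Os02g08500, a two-component response regulator, of a class that acts in cytokinin signalling, had 32.04 FPKM in WD2d and 83.1 FPKM in control. Of 5 listed ethylene loci, 3 were over the limit, 2 lower and 1 within 2-fold. Of 6 listed cytokinin loci, 3 were over the limit, 1 lower and 2 within 2-fold. Over all entries of the stretches, 12.0% were lower.

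Of 15 listed loci of the auxin response, 9 were over the limit, 1 higher, 3 lower and 5 within 2-fold, against 10.6% higher and 12.0% lower over all entries of the stretches. LOC_Os01g13520, annotated as auxin response factor 1, a DNA-binding factor of the auxin response, had 23.5 FPKM in WD2d and 121.6 FPKM in control (log2 ratio -2.37). OsIAA3, LOC_Os01g13030, an Aux/IAA repressor, had 18.1 FPKM in WD2d and 49.7 FPKM in control, and OsGH3.3, LOC_Os01g12160, which conjugates auxin to amino acids, had 7.57 FPKM in WD2d and 23.1 FPKM in control. OsIAA20, LOC_Os06g07040, was higher, with 77.1 FPKM in WD2d and 28.98 FPKM in control in the larger of its 2 entries. LOC_Os03g08850, annotated as the auxin receptor AUXIN SIGNALING F-BOX 2, and LOC_Os08g09190, an auxin efflux carrier, had log2 ratios of -0.97 and -0.99, just inside the limit. Of the gibberellin and strigolactone list, KAO, LOC_Os06g02019, which acts in gibberellin synthesis, had 11.8 FPKM in WD2d and 4.23 FPKM in control, and D3, LOC_Os06g06050, the F-box protein of strigolactone signalling, had 31.6 FPKM in WD2d and 13.7 FPKM in control.

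Single enzymes of lipid signalling, put together after their values had been seen, lay on either side. LOC_Os01g07760 (OsPLDalpha1, a phospholipase D, which releases phosphatidic acid) had 257.9 FPKM in WD2d and 117.2 FPKM in control (log2 ratio 1.14). LOC_Os05g03610, a phospholipase C, which releases diacylglycerol, had 30.1 FPKM in WD2d and 173.2 FPKM in control (log2 ratio -2.52), and LOC_Os08g08110, a diacylglycerol kinase, had 11.6 FPKM in WD2d and 51.7 FPKM in control (log2 ratio -2.16). Of 2 acyl-CoA binding proteins, LOC_Os06g02490 had 48.7 FPKM in WD2d and 14.4 FPKM in control, and LOC_Os08g06550 had 36.6 FPKM in WD2d and 188.8 FPKM in control. LOC_Os05g04700 (OsLti6b, a small hydrophobic membrane protein linked to low temperature) had 1163 FPKM in WD2d and 196.0 FPKM in control (log2 ratio 2.57). Both protein phosphatases 2C that were past the fold, LOC_Os02g08364 and LOC_Os03g04430, were lower, with 17.4 and 47.8 FPKM in WD2d and 90.95 and 161.3 FPKM in control, and another, LOC_Os05g04360, had 50.6 FPKM in WD2d and 36.4 FPKM in control and was within 2-fold.

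**Figure D4:**
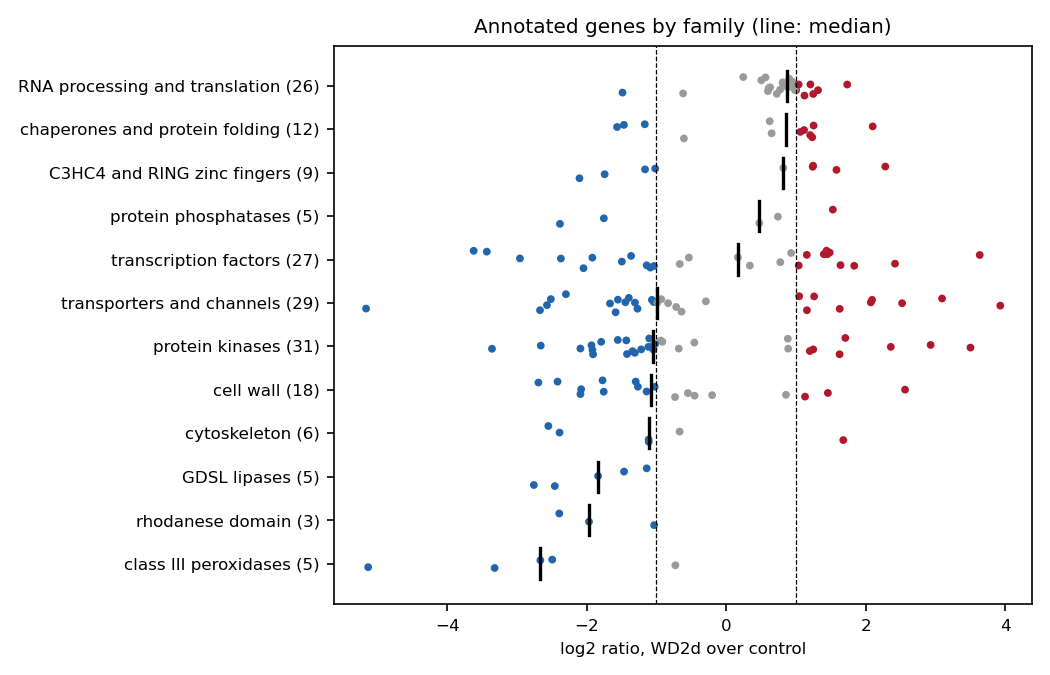
Log2 ratio (WD2d over control) of each annotated entry with over 4 FPKM in both groups, by family, with the number of entries in parentheses, dashed lines at 1 and -1 and a black line at the family's median. Entries were put in families by their descriptions. Peroxidases lie lowest, with a median of -2.66, and the 26 entries of RNA processing and translation lie highest, with a median of 0.88 and 18 of them within 2-fold.

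Of 26 annotated entries of RNA processing and translation, 24 had a log2 ratio above 0, but only 7 were past the limit, 1 was lower and 18 were within 2-fold, with a median of 0.88 against 0.34 over all annotated loci. Most of these were annotated because the study picked them after 3 d of WD, which favours a ratio on the same side at 2 d. Over the 208 loci over the limit that were annotated from sources other than the study's 2 d list, the median was 0.49. LOC_Os01g16870, an argonaute, a protein that acts with small RNAs, had 126.5 FPKM in WD2d and 38.01 FPKM in control (log2 ratio 1.73). Of 4 entries described as splicing or pre-mRNA-processing factors, 1 was higher and 3 were within 2-fold. LOC_Os01g15860, pre-mRNA-processing factor 6, in an entry naming 2 loci, had 11.8 FPKM in WD2d and 4.99 FPKM in control. LOC_Os05g07050, splicing factor 8, had 63.8 FPKM in WD2d and 36.4 FPKM in control, and LOC_Os02g05310, subunit 1 of splicing factor 3B, had 56.2 FPKM in WD2d and 29.2 FPKM in control. The lower one, LOC_Os02g03040, an RNA recognition motif protein, had 35.4 FPKM in WD2d and 99.2 FPKM in control. LOC_Os06g04020, a histone H1, a linker histone of chromatin, was higher, with 137.8 FPKM in WD2d and 59.2 FPKM in control.

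Of 12 annotated entries of chaperones, which help proteins fold, and other folding proteins, 6 were higher, 3 lower and 3 within 2-fold, against 33.5% higher and 34.4% lower over all annotated loci over the limit. LOC_Os03g02260, a DnaK (heat shock 70) protein, had 95.03 FPKM in WD2d and 22.2 FPKM in control (log2 ratio 2.10), while another DnaK protein, LOC_Os02g02410, had 170.5 FPKM in WD2d and 259.5 FPKM in control and was within 2-fold. LOC_Os12g07060, a DnaJ cochaperone, had 25.96 FPKM in WD2d and 11.97 FPKM in control, and LOC_Os02g01010, the protein disulfide isomerase PDIL1-4, was lower, with 21.7 FPKM in WD2d and 48.6 FPKM in control. Of 6 annotated cytoskeleton entries, 1 was higher, 4 lower and 1 within 2-fold, beside the same shares over all annotated loci. The higher one, LOC_Os01g15260, a dynein light chain domain protein, had 85.8 FPKM in WD2d and 26.8 FPKM in control in the larger of its 2 entries. Both annotated tubulin entries were lower. LOC_Os02g07060 had 29.7 FPKM in WD2d and 155.3 FPKM in control, and LOC_Os03g01530 had 4.08 FPKM in WD2d and 23.9 FPKM in control. All 3 annotated rhodanese domain proteins, a sulfur transferase fold, were lower, beside 34.4% lower over all annotated loci over the limit. Of these 3, LOC_Os02g07044 had 6.71 FPKM in WD2d and 35.2 FPKM in control.

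Of the 16 genes of the stretches that the study lists as functionally characterised, 14 were higher by over 2-fold after 2 d and 2 were within 2-fold, with a median log2 ratio of 1.77. The study drew them from genes that were higher after 3 d of WD against the same control libraries, so their direction is no independent evidence. The 2 within 2-fold were HOX1a, LOC_Os06g12400, with 19.9 FPKM in WD2d and 11.6 FPKM in control, and NYC1, LOC_Os01g12710, with 20.1 FPKM in WD2d and 13.5 FPKM in control. Over all 561 annotated loci with over 4 FPKM in both groups, 188 were higher, 193 lower and 180 within 2-fold.

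Values after 3 d of WD, which are set against the same control libraries, are given side by side for some of these genes, as a description without a test. In the order control, 2 d and 3 d, the metallothionein had 402.4, 11238 and 26219.6 FPKM. BBTI4 had 25.2, 549.8 and 405.4 FPKM, and BBTI5 had 5.45, 300.7 and 519.4 FPKM. For enolase, LOC_Os06g04510, the values were 15.8, 243.2 and 128.2 FPKM, the 2 d value being the highest. CESA1 had 177.3, 72.1 and 15.6 FPKM. The xylem cysteine proteinase had 63.2, 6.23 and 0.538 FPKM, and the remorin LOC_Os03g02040 had 79.3, 9.67 and 0.640 FPKM. For both, the value after 3 d was under 1 FPKM.

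The limit of 4 FPKM in both groups leaves out genes that were nearly silent in 1 group. In the stretches, 234 entries had over 4 FPKM in WD2d and at most 4 FPKM in control, 13 of them listed at 0 in control, and 426 entries had over 4 FPKM in control and at most 4 FPKM in WD2d, 13 of them listed at 0 in WD2d. Of those with values above 0 in both groups, 137 were higher and 337 lower by over 2-fold. Entries listed at 0 in 1 group have no ratio and are not in these counts. None of the 10 highest loci of either kind is annotated in the sources used here, so they are given by locus only. LOC_Os08g01370 had 788.1 FPKM in WD2d and was listed at 0 in control. LOC_Os03g07180 had 732.1 FPKM in WD2d and 0.236 FPKM in control, and LOC_Os05g04870 had 448.2 FPKM in WD2d and 0.0707 FPKM in control. On the other side, LOC_Os03g05530 had 3.51 FPKM in WD2d and 259.6 FPKM in control, and LOC_Os01g09030 had 1.24 FPKM in WD2d and 185.8 FPKM in control. These loci were chosen by this difference, so it is a description only. The 10 highest in WD2d lay between 78.4 and 788.1 FPKM there and at most at 3.38 FPKM in control, and the 10 highest in control had 0.138 to 3.77 FPKM in WD2d and 53.8 to 259.6 FPKM in control.

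**Figure D5:**
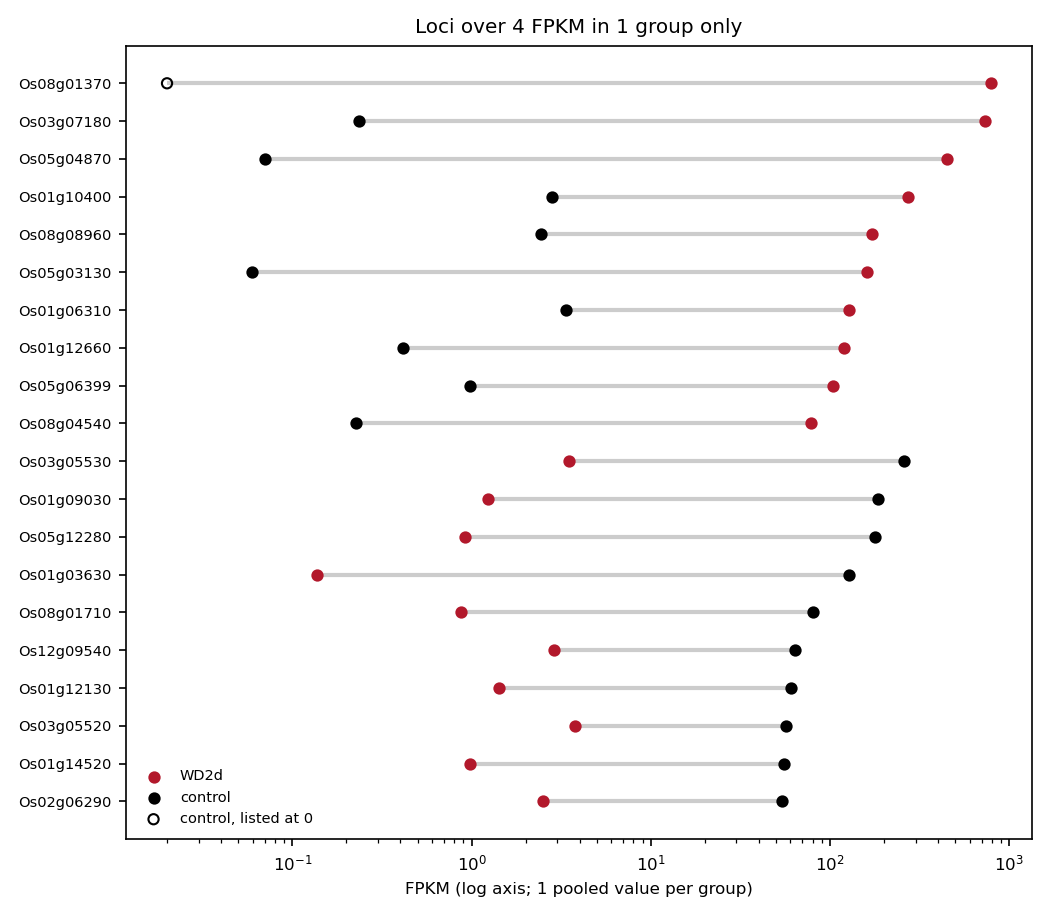
FPKM (log axis, 1 pooled value per group) in WD2d (red) and control (black) of the 10 loci with the highest FPKM in WD2d among those at 4 FPKM or less in control (top), and the 10 with the highest FPKM in control among those at 4 FPKM or less in WD2d (bottom). The open circle marks Os08g01370, listed at 0 in control and drawn at the left edge, against 788.1 FPKM in WD2d.

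At the other extreme, abundant genes with nearly equal values were also found. The 10 most abundant loci with a log2 ratio within 0.2 of 0 had 119.3 to 316.3 FPKM in WD2d and 130.3 to 333.5 FPKM in control, and none of them is annotated in the sources used here. LOC_Os03g06240, the most abundant, had 316.3 FPKM in WD2d and 333.5 FPKM in control.

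Genes past the fold were also compared with their neighbours. Among the 379 past the fold with an unshared locus name (171 higher, 208 lower, together 23.2% of 1633), 74 consecutive pairs lay within 20 kb of each other. In 46 of them (62.2%) both went the same way, 19 pairs higher and 27 lower, against 50.3% over all possible pairs of these 379 genes, a difference that was not tested. Without the 7 pairs whose listed spans overlap, 39 of 67 pairs (58.2%) were on the same side. In those 7, BBTI4 and BBTI5 among them, both genes were on the same side, and shared reads cannot be told apart from a shared change.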

How the data were processed

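RNA-Seq libraries were made from the roots of rice seedlings, 2 from plants without irrigation for 2 d (WD2d) and 2 from well-watered plants (control). According to the methods, the authors checked paired-end reads with FastQC, trimmed them with Cutadapt and Trim Galore, aligned the trimmed reads to the rice IRGSP 1.0 assembly in TopHat, used gene models of the Rice Genome Annotation Project and compared groups with Cuffdiff; for versions, strand setting and depth per library the sources used here give nothing. The deposited values are FPKM, 1 per group and entry, which the authors made by pooling both libraries. Columns of fold change, test statistic, p and q value and significance hold the authors' own comparison and were not used. The number of columns of per-library values left unused was 0. Because FPKM was normalised by length and by mapped fragments, 1 very abundant transcript can lower the values of the others.

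The log2 ratio of WD2d over control was computed without a pseudocount, and an entry was past the fold at over 4 FPKM in both groups and an absolute log2 ratio over 1 (Python 3.11.15, pandas 2.3.3, numpy 2.4.6, matplotlib 3.10.9; the steps were tested on simulated data). With 1 value per group no test was run, although limma had been planned had values per library been there. Named genes were, among entries naming 1 locus that no other entry names in the stretches used, the 15 highest and 15 lowest ratios, the 10 highest FPKM in WD2d, the 10 highest loci over 4 FPKM in 1 group only in each direction, and the 10 most abundant with an absolute log2 ratio within 0.2. Annotated members of lists and families were also named. Further annotated genes, outside these lists and families, were picked after the values had been seen. The 37 gene lists (323 loci, 322 of them in the stretches) come from general knowledge, and 102 of their loci are annotated in the sources. A locus named by several entries was counted through the entry with the largest summed FPKM. Families were formed from the descriptions after the values had been seen. The comparison, lists and members were chosen with earlier results of these data known. Reads shared by near-identical genes could move FPKM between them. Alternatives changed the FPKM limit, pseudocount, fold limit, centring, entries and position limits.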

Additional observations from a re-analysis of the deposited data

How the results depend on the processing

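No paired analysis was possible because both libraries of a group were merged into a single FPKM before deposit, and leaving out replicates and limma were not run for the same reason. The count of entries past the fold, 1216 higher and 1381 lower in WD2d, followed the FPKM limit. It was 2343 higher and 3536 lower with over 4 FPKM in at least 1 group, 4807 and 7659 with no limit, 2193 and 2978 with over 1 FPKM in both groups, and 664 and 693 with over 10 FPKM. Entries without a positive value in both groups have no ratio and were left out of this count. With a log2 limit of 2 it was 324 higher and 390 lower, and with one of 0.5 it was 3106 higher and 2701 lower, the only setting with more higher than lower entries. Entries whose locus no other entry names gave 500 higher and 600 lower. For named entries in the stretches, 186 higher and 227 lower, the counts were 300 and 494 with over 4 FPKM in at least 1 group, 602 and 1061 with no limit, 291 and 410 with over 1 FPKM, 101 and 120 with over 10 FPKM, 52 and 63 with a log2 limit of 2, and 458 and 411 with one of 0.5. With pseudocounts, centring on the median, the testing status or a minimum span, both pairs of counts stayed within 1.5 times of these, as did the named count with lower position limits, an alternative that gives no value for the whole table. Centring made the split less even, with 1068 higher and 1557 lower, and 165 and 249 for named entries. These alternatives could hardly turn a ratio past the limit round, so its direction was not put to a test by them. Of 381 annotated loci past the fold, 27 fell inside the 2-fold limit with a pseudocount of 1, 14 with centring and 2 with a pseudocount of 0.1. The spread between libraries and their depth are unknown, so how many of the differences exceed replicate error could not be set.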

Other observations

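Entries without any gene name were not described above. There were 5463 in the whole table, 2070 of them with over 4 FPKM in both groups, of which 204 were higher (9.86%) and 282 lower (13.6%) in WD2d, with a median log2 ratio of 0.04. Over the whole table, 1739 entries had over 4 FPKM in WD2d alone, 76 of them listed at 0 in control, and 2701 had over 4 FPKM in control alone, 109 of them listed at 0 in WD2d. A further 27035 entries were listed at 0 in both groups. Grouped by control FPKM instead of the mean of both groups, 16.8% of the entries in the lowest quartile were higher and 0.171% lower in WD2d, whereas 5.63% of those in the highest quartile were higher and 25.1% lower; the limit of 4 FPKM and the use of the control value on both sides fix part of this pattern. The control and WD2d values in the table of the comparison equalled those in the table of 3 d of WD for 63985 of 63985 entries.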
